A study of Homo sapiens with 6 samples.

Results

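The circadian clock genes described here are 10 rows of a table of 16781 genes measured in Caco-2 cells: CLOCK, BMAL1 (listed under its older name ARNTL), PER1, PER2, PER3, CRY1, CRY2, NR1D1, NR1D2 and DBP. They were taken by gene symbol, and all 10 were found and passed the filter on low counts. Caco-2 is an established human cell line, derived from a colon adenocarcinoma. The libraries hold mRNA from 3 samples of unmodified cells (WT) and 3 samples in which CBS, an enzyme that makes hydrogen sulfide, had been stably knocked out by CRISPR/Cas9 (CBS KO). Both groups were grown in high-glucose DMEM with fetal bovine serum. Cas9 and the guide reached the knockout cells on a lentivirus that also made them resistant to puromycin, with which they were selected, so infection, selection and knockout cannot be told apart here. The labels say neither whether the knockout cells were 1 clone or a pool nor whether the 3 samples of a group were separate cultures, so the p-values cover no more than the spread among these samples, which may be technical. The labels also give no hour of harvest and no step that would bring the clocks of the cells into phase, so the clock phase of the cells in each sample, and whether it was shared between samples or groups, is unknown.

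The circadian clock is a loop of transcription factors that runs in nearly every cell. CLOCK and BMAL1 bind together to E-box sequences and switch on the PER, CRY, NR1D and DBP genes. PER and CRY proteins return to the nucleus and repress CLOCK and BMAL1, while the nuclear receptors NR1D1 and NR1D2 (REV-ERB alpha and beta) compete with ROR receptors for elements in BMAL1 and other genes and repress them, and DBP activates genes through D-boxes. In the intestine the clock is known to time nutrient uptake and cell division. PER1 and other clock genes are also known to respond quickly to cyclic AMP, glucocorticoids and serum.

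The control elements that define this loop lie close to the starts of several of the members. All 10 genes were matched in RefSeq's promoter windows of build GRCh38.p14, which span 250 bases before and 50 bases after a gene's start, and 5 of them had 2 windows. The windows were searched on both strands for the E-box (CACGTG, which reads the same on both strands), the E'-box (CACGTT), the D-box (TTATGTAA or TTACGTAA), the element of the NR1D and ROR receptors (AANT followed by AGGTCA or GGGTCA), the cyclic AMP response element (TGACGTCA) and the heat shock element core (GAANNTTC or TTCNNGAA). Printed first are the 250 bases before the starts of NR1D1, PER1 and CRY1, which rose furthest in CBS KO, and of NR1D2, which held the most matches. Capitals mark the matches.

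PER1 upstream stretch, chr17:8152405-8152654, minus strand: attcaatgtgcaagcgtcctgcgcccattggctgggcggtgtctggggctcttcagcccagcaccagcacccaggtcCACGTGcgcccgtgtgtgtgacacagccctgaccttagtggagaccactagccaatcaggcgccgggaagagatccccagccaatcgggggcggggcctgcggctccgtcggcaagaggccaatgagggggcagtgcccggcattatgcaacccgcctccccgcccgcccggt

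NR1D1 upstream stretch, chr17:40100590-40100839, minus strand: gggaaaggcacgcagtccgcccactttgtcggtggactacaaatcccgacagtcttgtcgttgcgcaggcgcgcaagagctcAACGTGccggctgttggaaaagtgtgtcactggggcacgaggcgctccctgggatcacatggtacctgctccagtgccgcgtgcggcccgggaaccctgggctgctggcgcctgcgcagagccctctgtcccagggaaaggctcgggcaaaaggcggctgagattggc

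CRY1 upstream stretch, chr12:107093550-107093799, minus strand: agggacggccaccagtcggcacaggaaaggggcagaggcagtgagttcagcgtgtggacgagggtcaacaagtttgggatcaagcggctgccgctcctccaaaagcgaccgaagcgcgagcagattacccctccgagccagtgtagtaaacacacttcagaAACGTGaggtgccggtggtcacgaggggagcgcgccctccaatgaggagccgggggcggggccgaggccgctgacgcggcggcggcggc

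NR1D2 upstream stretch, chr3:23945871-23946120, plus strand: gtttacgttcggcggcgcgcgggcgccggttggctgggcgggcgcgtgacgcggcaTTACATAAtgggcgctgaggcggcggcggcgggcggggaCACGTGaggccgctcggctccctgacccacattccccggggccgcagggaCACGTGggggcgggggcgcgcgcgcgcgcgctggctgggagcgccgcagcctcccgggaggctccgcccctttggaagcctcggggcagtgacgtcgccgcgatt

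The receptor element of BMAL1, which lies after the start, and the D-boxes of PER2 and PER3 are shown as 30-base sites.

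BMAL1 REV-ERB/ROR element, chr11:13277807-13277836, plus strand: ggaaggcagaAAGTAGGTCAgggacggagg

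PER2 D-box, chr2:238288595-238288624, minus strand: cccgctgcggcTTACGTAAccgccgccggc

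PER3 D-box, chr1:7784103-7784132, plus strand: gagcccgcgcgTTATGTAAcgcgccccggg

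The E-box of PER1 began 173 bases before the start, and the E'-boxes of NR1D1 and CRY1, which appear above on the opposite strand as AACGTG, began 168 and 89 bases before it. NR1D2 held E-boxes that began 155 and 105 bases before the start and a D-box, read on the opposite strand as TTACATAA, that began 194 bases before it. E-boxes were found in 2 of the 10 genes and E'-boxes in 5 (CLOCK, CRY1, CRY2, NR1D1 and PER2), against 7.26% and 5.34% of all 35116 windows. D-boxes were found in 3 genes (NR1D2, PER2 and PER3) against 1.01% of all windows, and the receptor element in BMAL1 and CLOCK against 0.379%. A gene with 2 windows had more sequence to match than a single window, so the shares per gene and per window are not on the same footing. No cyclic AMP response element was found in any window of the 10 genes (1.85% of all windows held it), and a heat shock element core was found in CRY2 (13.5% of all windows). None of the 6 motifs was found in the window of DBP. A match describes letters and says nothing of binding, and no match says only that the letters are not in these windows.

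The estimated counts summed to between 12805180 and 16176745 in the 6 libraries. CBS stood at 48.8, 53.0 and 50.6 counts per 1000000 counts (CPM, with TMM scaling, the trimmed mean of M values) in WT replicates 1, 2 and 3 and at 24.6, 18.5 and 25.4 CPM in CBS KO replicates 1, 2 and 3, and its log2 fold change came to -1.15 (SE 0.10, adjusted p = 1.18e-08, edgeR). The genome holds a near-identical copy, CBSL, so how the reads of CBS were split is uncertain. Epithelial markers were abundant: VIL1, CDX2, EPCAM, KRT8, KRT18, KRT20, CDH1, CDH17 and HNF4A summed to 6540 to 6991 CPM in WT and to 7667 to 8157 CPM in CBS KO, with 5 of the 9 higher and 3 lower. Of 5 immune markers 2 were higher (CD68 and LYZ), with sums of 32.5 to 38.2 CPM in WT and 93.3 to 109.8 CPM in CBS KO, while PTPRC had no count in 5 libraries and 0.08 CPM in CBS KO replicate 3. Of 6 fibroblast markers 1 was higher and 2 lower (205.5 to 232.3 CPM against 182.4 to 197.7 CPM), of 3 endothelial markers 2 were lower (25.4 to 29.2 CPM against 9.23 to 9.92 CPM), and of 3 neuronal markers 1 was higher (4.66 to 5.22 CPM against 6.67 to 8.85 CPM). Over all genes tested 38.4% were called higher and 38.9% lower with TMM, and these shares are the background for the marker counts. The part of the marker shifts in the values of the clock genes was not tested.

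Of the 10 clock genes 9 were higher in CBS KO and none was lower with TMM scaling (edgeR's quasi-likelihood test, Benjamini-Hochberg adjusted p under 0.05 over 13028 genes), where 77.2% of all genes were called, 38.4% as higher and 38.9% as lower. NR1D1 and PER1 rose 5.74-fold and 4.80-fold, CRY1 3.07-fold and CLOCK 2.15-fold, while BMAL1, which did not pass, had a log2 fold change of 0.04. With TMM these 4 passed 2-fold, as did 12.0% of all genes tested in that direction. CLOCK did not reach 2-fold under the other 3 scalings. CRY1 fell just short of it in the fit on log2(TPM + 1), where its mean TPM without the added 1 was 9.25 in WT and 19.2 in CBS KO. The median log2 fold change came to 0.84 over the 10 genes and -0.01 over all genes tested. In TMM-scaled CPM the groups did not overlap for 9 of the 10 genes, all higher in CBS KO. Of all genes 38.9% did not overlap in that direction and 79.1% in either.

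The size of these differences depended on how the libraries were scaled. When TMM was replaced by the library total, 6 of the 10 were higher and 1 lower (22.8% and 56.8% of all genes tested, 79.6% in either direction), and the median over all genes moved to -0.36. Limma-trend on log2(FPKM + 1) gave the same split of 6 and 1 (22.7% and 56.7%, 79.5% in either direction), with a median over all genes of -0.31, and on log2(TPM + 1) 5 were higher and 1 lower (15.4% and 66.1%, 81.5% in either direction), with a median of -0.52. The median over the 10 clock genes was 0.49 with the library total, 0.47 in FPKM and 0.26 in TPM. FPKM and TPM are reads per length of transcript, relative to the library and to the sum over all transcripts. FPKM thus scales by the library total too, so its like split is no independent check. The added 1 also makes changes smaller. The log2 fold change of NR1D1 in FPKM was 2.025 with 1 added and 2.151 with 0.1 added, against 2.168 on library totals. NR1D1, PER1, CRY1, CLOCK and DBP were higher in all 4 of these fits, as were 15.0% of the genes tested in all of them. The gene called lower in the latter 3 fits was BMAL1.

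Positions of the genes below are those of GENCODE 29 on GRCh38. The activators of the loop parted ways. CLOCK, the histone-acetylating partner of the pair (chr4:55427903-55547138, minus strand), stood at 35.4, 35.1 and 34.6 CPM in WT and at 82.97, 74.1 and 68.6 CPM in CBS KO. Every CBS KO library lay above every WT library, and the log2 fold change came to 1.103 (SE 0.08, adjusted p = 1.07e-09, edgeR). It was smaller on library totals (0.75, adjusted p = 8.83e-07, edgeR), in FPKM (0.58, adjusted p = 0.000117, limma) and in TPM (0.41, adjusted p = 0.00577, limma). BMAL1, which binds E-boxes together with CLOCK (chr11:13276652-13387266, plus strand), stood at 22.3, 24.4 and 21.7 CPM in WT and at 22.5, 21.4 and 26.2 CPM in CBS KO. In CPM the groups overlapped, with the highest value in CBS KO replicate 3 and the lowest in CBS KO replicate 2. The difference did not pass (log2 fold change 0.04, SE 0.09, adjusted p = 0.707, edgeR). In FPKM the groups were separate, at 9.92 to 11.2 in WT and 7.74 to 9.40 in CBS KO. With the library total the log2 fold change of BMAL1 was -0.32 (adjusted p = 0.00395, edgeR), with FPKM -0.27 (adjusted p = 0.0115, limma) and with TPM -0.50 (adjusted p = 0.000287, limma), all called lower. Relative to the median of all genes in the same fit, the log2 value of BMAL1 was 0.05 with TMM and 0.05 scaled to the library total, and it was 0.04 in FPKM and 0.02 in TPM.

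The PER genes, whose proteins form the repressor complex with CRY, differed in size of response. PER1 (chr17:8140472-8156506, minus strand) stood at 17.9, 16.4 and 16.6 CPM in WT and at 90.3, 79.9 and 73.7 CPM in CBS KO, a log2 fold change of 2.26 (SE 0.09, edgeR adjusted p = 6.19e-13). The lowest CBS KO library thus lay far above the highest WT library, and raw counts rose from 298 to 325 per library in WT to 907 to 1101 in the shallower CBS KO libraries. PER2 (chr2:238244038-238290102, minus strand) stood at 12.9, 11.6 and 11.9 CPM in WT and at 16.2, 17.2 and 14.9 CPM in CBS KO, a log2 fold change of 0.41 (SE 0.10, edgeR adjusted p = 0.00105). PER3 (chr1:7784320-7845177, plus strand) stood at 61.9, 60.01 and 58.7 CPM in WT and at 88.2, 93.2 and 71.95 CPM in CBS KO, a log2 fold change of 0.49 (SE 0.08, edgeR adjusted p = 4.93e-05). For both the groups were separate in TMM-scaled CPM, but their calls were lost with the library total, FPKM and TPM. In FPKM the groups of PER2 overlapped (2.18 to 2.40 in WT, 2.11 to 2.53 in CBS KO), as did those of PER3 (11.9 to 12.5 against 10.8 to 14.3). With the library total PER2 stood at a log2 fold change of 0.06 (adjusted p = 0.607, edgeR) and PER3 at 0.14 (adjusted p = 0.189), and with TPM at -0.14 (adjusted p = 0.251, limma) and -0.13 (adjusted p = 0.292). Relative to the median of all genes in the same fit, PER2 stood 0.34 to 0.42 higher and PER3 0.38 to 0.50 higher on the log2 scale under the 4 scalings. Both thus stayed above that median, while their log2 fold changes turned negative with TPM.

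The CRY genes, which encode the strongest repressors of CLOCK and BMAL1, split in the same manner. CRY1 (chr12:106991364-107093829, minus strand) stood at 14.3, 12.3 and 14.5 CPM in WT and at 45.3, 41.7 and 38.9 CPM in CBS KO, a log2 fold change of 1.62 (SE 0.09, edgeR adjusted p = 6.31e-11). All CBS KO libraries lay above 38 CPM and all WT libraries under 15 CPM, and with TPM the log2 fold change was 0.98 (adjusted p = 3.07e-06, limma). CRY2 (chr11:45847118-45883248, plus strand) stood at 23.1, 20.02 and 20.5 CPM in WT and at 29.7, 30.1 and 27.0 CPM in CBS KO, a log2 fold change of 0.45 (SE 0.08, edgeR adjusted p = 0.000131). Its groups did not overlap in CPM but did in FPKM (5.92 to 6.78 against 6.04 to 7.04), and its log2 fold change came to 0.09 with the library total (adjusted p = 0.333, edgeR) and -0.12 with TPM (adjusted p = 0.297, limma). Relative to the median of all genes CRY2 stood 0.39 to 0.46 higher on the log2 scale.

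NR1D1, the haem-binding repressor of BMAL1 (chr17:40092787-40100725, minus strand), showed the largest change of the 10 genes under each of the 4 scalings. It stood at 15.1, 16.2 and 14.0 CPM in WT and at 94.9, 80.8 and 84.1 CPM in CBS KO. The groups were far apart, with raw counts of 257 to 295 per library in WT and 919 to 1158 in CBS KO. The log2 fold change came to 2.52 (SE 0.08, adjusted p = 1.54e-13, edgeR), and it was 2.17 on library totals, 2.02 in FPKM and 1.85 in TPM. NR1D2, its paralog (chr3:23945260-23980618, plus strand), stood at 43.8, 38.6 and 36.7 CPM in WT and at 83.1, 66.6 and 64.1 CPM in CBS KO, a log2 fold change of 0.84 (SE 0.10, edgeR adjusted p = 8.4e-07). The groups did not overlap, and CBS KO replicate 1 was the highest library. With TPM the call of NR1D2 was lost (log2 fold change 0.24, adjusted p = 0.0975, limma), while its value relative to the median of all genes lay between 0.75 and 0.86 under the 4 scalings.

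DBP (chr19:48630030-48637438, minus strand), an activator of D-box genes and a direct target of CLOCK and BMAL1 in many tissues, stood at 30.2, 25.2 and 25.2 CPM in WT and at 49.5, 47.8 and 46.75 CPM in CBS KO. In CPM no CBS KO library came near the WT range, and the log2 fold change came to 0.84 (SE 0.08, adjusted p = 6.78e-08, edgeR). With the library total it was 0.48 (adjusted p = 8.02e-05, edgeR) and with TPM 0.28 (adjusted p = 0.0124, limma). The groups nearly met in TPM, at 27.0 to 33.1 in WT and 33.4 to 38.2 in CBS KO.

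**Figure D1:**
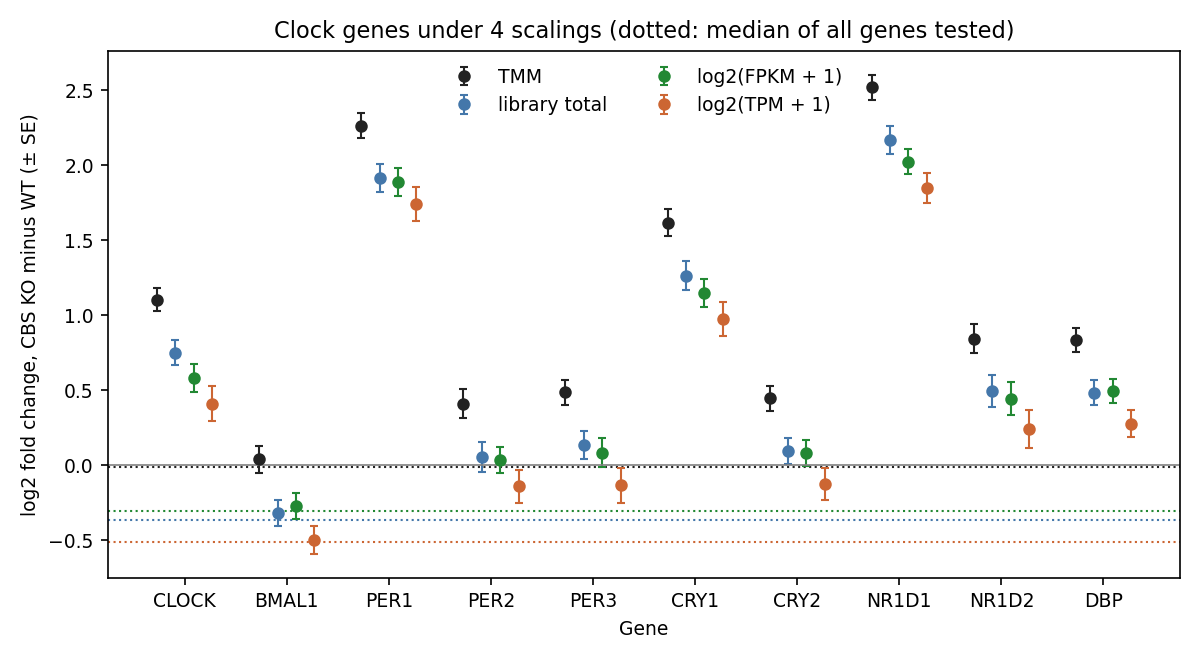
Log2 fold change (CBS KO minus WT, with SE) of each clock gene under TMM, the library total, log2(FPKM + 1) and log2(TPM + 1), with the median of all genes tested as a dotted line of the same colour. NR1D1, PER1, CRY1, CLOCK, DBP and NR1D2 lie above 0 under all 4 scalings, though NR1D2 was not called with TPM. PER2, PER3 and CRY2 lie above 0 except with TPM, and BMAL1 lies close to the dotted lines.

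Ratios of 2 genes within a library do not depend on the scaling between libraries, and 8 of them were computed on log2(FPKM + 0.1). PER1 was at 0.94, 0.97 and 0.96 against PER2 in the WT libraries and at 3.13, 2.87 and 2.96 in the CBS KO libraries, a difference of 2.03. Thus PER1 moved away from PER2 in all 3 CBS KO libraries. PER1 against PER3 went from -1.41 ± 0.03 to 0.58 ± 0.14 (SD, n = 3 in each), so that PER1 stood below PER3 in WT and above it in CBS KO. CRY1 against CRY2 went from -0.14 ± 0.12 to 1.03 ± 0.08, NR1D1 against NR1D2 from -0.31 ± 0.14 to 1.36 ± 0.09, and in each pair the order of the paralogs turned. For CRY1 and CRY2 the order in WT was slight, with a ratio of -0.01 in WT replicate 3. BMAL1 against CLOCK fell from 1.30 ± 0.06 to 0.33 ± 0.30, where CBS KO replicate 3 stood at 0.67 and the others at 0.13 and 0.19. BMAL1 against NR1D1 went from 0.51 ± 0.02 to -1.94 ± 0.21, a difference of -2.45, and DBP against BMAL1 from 0.76 ± 0.21 to 1.58 ± 0.16. In these 7 ratios the groups did not overlap, and each gave p = 0.10 in an exact two-sided permutation test (0.114 adjusted over the 8 ratios), which is the smallest p that 3 against 3 libraries allow. PER2 against PER3 was the exception, at -2.37 ± 0.05 and -2.41 ± 0.10 with overlapping groups (difference -0.04, exact permutation p = 0.5). How often ratios of other gene pairs separate the groups was not computed. Of all single genes tested, 79.1% had separate groups in either direction in TMM-scaled CPM, so separate ratios are no trait of the clock pairs.

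Per length of transcript, the order of the genes changed. In WT the mean levels were 17.9 FPKM for DBP, 12.2 for PER3, 10.5 for BMAL1, 9.10 for NR1D2, 7.32 for NR1D1, 6.25 for CRY2, 5.65 for CRY1, 4.51 for PER1, 4.18 for CLOCK and 2.27 for PER2. In that order BMAL1 and NR1D2, and CRY2 and CRY1, overlapped between their libraries, and the other neighbours did not. In CBS KO NR1D1 led with 32.9 ± 3.62 FPKM, followed by DBP with 25.6 ± 0.83 and PER1 with 19.5 ± 2.51 (SD, n = 3). CRY1 (13.8 FPKM), PER3 (13.03) and NR1D2 (12.8) came next and overlapped, BMAL1 followed with 8.52, CLOCK (6.79) and CRY2 (6.68) overlapped, and PER2 was again the lowest with 2.36. NR1D1 thus rose from the fifth place to the first, PER1 from the eighth to the third, and BMAL1 went from the third to the seventh.

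Some of the clock genes share exons with genes on the opposite strand, and whether the counting used strand is not given in the sources used here. NR1D1 shares 263 of its 2772 exonic bases in GENCODE 29 with THRA, a thyroid hormone receptor, which stood at 81.7 ± 1.66 CPM in WT and 90.2 ± 3.92 in CBS KO (log2 fold change 0.14, adjusted p = 0.0424, edgeR) and turned to -0.21 with the library total and -0.43 with TPM. DBP shares 661 of 6544 bases with SPHK2, a sphingosine kinase, which fell by 1.78 on the log2 scale, from 94.4 ± 2.60 to 27.4 ± 2.72 CPM (adjusted p = 3.4e-12, edgeR), opposite to DBP. CLOCK shares 76 bases with TMEM165 (37.2 ± 2.66 against 33.5 ± 1.31 CPM, adjusted p = 0.0799, edgeR; called lower with the library total, FPKM and TPM). PER3 shares 868 of 8099 bases with UTS2, which had 23 counts in all WT libraries together and 6 in CBS KO. The locus of NR1D2 overlaps that of NKIRAS1, with 0 exonic bases shared. Other genes annotated over exons of CLOCK, PER1, PER2, PER3 and CRY1 were not analysed here. The transcript lengths implied by counts and FPKM ran from 1683 bases for DBP to 9621 bases for CLOCK. When all genes tested were ranked by that length and cut into 4 equal classes, none of the 10 fell in the shortest class, at whose edge DBP lay. The median log2 fold change of that class was 0.11, against -0.05 to -0.06 in the other 3.

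Beyond these 10, 4 lists with 65 further genes of the clock were examined, of which 59 were tested: 30 were higher, 18 lower and 11 did not pass (TMM, edgeR), with a median log2 fold change of 0.22. Over all genes tested 38.4% were higher and 38.9% lower, and 77.2% were called in either direction. With TPM 14 of the listed genes were higher and 31 lower, where 15.4% of all genes were higher and 66.1% lower. These shares over all genes are the background for each list below, and a count near them is no result about a list. Paralogs and partners of the activators and repressors were higher in 8 of 11 tested cases and lower in 2, with a median of 0.98, or 0.25 with TPM, where 5 were higher and 3 lower (all genes: 38.4% higher and 38.9% lower with TMM, 15.4% and 66.1% with TPM). BHLHE40 and BHLHE41 (DEC1 and DEC2), which compete with CLOCK and BMAL1 for E-boxes, were both higher. BHLHE40 stood at 34.0, 33.6 and 27.2 CPM in WT and at 138, 138.2 and 139.5 CPM in CBS KO, a log2 fold change of 2.13 (SE 0.08, edgeR adjusted p = 5.29e-13), while BHLHE41 was scarce (0.48 ± 0.22 against 3.24 ± 0.35 CPM, log2 fold change 2.75, SE 0.29), with 26 counts in all WT libraries together. NFIL3 (E4BP4), the repressor that opposes DBP at D-boxes, stood at 18.8, 18.3 and 18.3 CPM in WT and at 90.4, 90.3 and 86.6 CPM in CBS KO, a log2 fold change of 2.27 (SE 0.07, edgeR adjusted p = 4.41e-14). The E-box repressor CIART rose 2.96-fold from 8.24 ± 0.93 to 24.5 ± 1.88 CPM. Thus NFIL3 rose further than DBP in fold (4.82 against 1.79), a difference that was not itself tested. TIMELESS, a replication fork protein named for its fly relative, fell by 1.37 on the log2 scale, from 74.8 ± 3.09 to 28.9 ± 0.72 CPM. RORA, which activates the elements that NR1D1 represses and is named here with its value known, rose 2.05-fold.

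Enzymes that modify clock proteins were higher in 12 of 25 tested cases and lower in 7 (median 0.15), but with TPM 1 was higher and 18 lower (median -0.42). The share called with TMM was near the 77.2% of all genes, and with TPM 66.1% of all genes were lower. CSNK1E, a kinase of PER proteins, rose 2.05-fold from 66.6 ± 1.68 to 136.5 ± 1.33 CPM and was higher under all 4 scalings. BTRC, which marks PER proteins for destruction, fell by 0.94 on the log2 scale, WDR5, a partner of PER complexes, by 0.78, and EP300, an acetyltransferase that assists CLOCK and BMAL1, by 1.41, from 137.7 ± 2.17 to 51.7 ± 8.44 CPM.

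Input genes, which carry cyclic AMP, glucocorticoid and heat signals to the clock, were higher in 4 of 12 tested cases and lower in 6 (median -0.05), beside 38.4% and 38.9% of all genes. On library totals 4 were higher and 7 lower (median -0.40), beside 22.8% and 56.8% of all genes (median -0.36). In TPM 3 were higher and 6 lower (median -0.28), beside 15.4% and 66.1% of all genes (median -0.52). CRTC2 and CRTC1, coactivators of the cyclic AMP-responsive factor CREB, went apart, with CRTC2 2.03-fold higher and CRTC1 lower by a log2 fold change of -1.04. NR3C1, the glucocorticoid receptor, rose 2.01-fold and CREM, a relative of CREB, 1.76-fold, while SIK2, a kinase that restrains CRTC proteins, fell by 1.06 on the log2 scale. These values are with TMM. In TPM the log2 fold changes were 0.42 for CRTC2, 0.30 for NR3C1, 0.29 for CREM, -1.46 for CRTC1 and -1.40 for SIK2.

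Clock output genes were higher in 6 of 13 tested cases and lower in 3, with a median of 0.10, or -0.41 with TPM, where 5 were higher and 6 lower. Over all genes 38.4% were higher and 38.9% lower with TMM, and 15.4% and 66.1% with TPM. PCK1, the gluconeogenic enzyme, stood at 9.61, 9.22 and 8.09 CPM in WT and at 97.2, 87.3 and 98.1 CPM in CBS KO, and its log2 fold change of 3.39 (SE 0.09, adjusted p = 5.05e-15, edgeR) exceeded that of NR1D1. NAMPT, the enzyme of NAD salvage, rose 2.99-fold from 84.0 ± 0.84 to 251.1 ± 13.6 CPM. The NADP phosphatase NOCT rose 3.23-fold, the cell cycle inhibitor CDKN1A 2.60-fold and the mitotic brake WEE1 1.91-fold. These 5, named for their large changes with TMM, were higher under all 4 scalings, as were 15.0% of the genes tested in all of them.

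The genes closest in pattern to NR1D1 were sought among all genes tested, by the root mean square difference of log2(CPM + 0.1), centred on each gene's mean, over the 6 libraries. GPR3, a receptor that raises cyclic AMP, came first with a difference of 0.06 and rose 6.13-fold, followed by ZFP36, a protein that speeds the decay of short-lived mRNAs (5.57-fold), and GEM, a small GTP-binding protein (5.90-fold), both also at 0.06. GPR3 had 68 counts in all WT libraries together. The 0.1 CPM was chosen with these values known. With 0.5 CPM added in its place, GEM and ZFP36 were again among the 3 closest, and the other was IFNL1, which had no count in WT. The 6 libraries form 2 groups, so the measure mostly follows the step between them.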

How the data were processed

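The labels' protocols describe RNA extracted with Trizol, selection of mRNA on oligo(dT) beads, second-strand marking with dUTP and paired-end sequencing on an Illumina NovaSeq. Tools listed in the submitters' processing notes, with no role given, are edgeR, DESeq2, StringTie 2.1.6, HISAT2 2.2.1 and cutadapt 1.9, and the build is GRCh38. How reads were assigned to genes is not given in the sources used here. The authors deposited estimated counts per gene, of which 7.12 to 7.43% in a library were not whole, and FPKM and TPM values, per the file headers.

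Estimated counts were rounded, filtered with filterByExpr (13028 genes left), scaled by TMM and compared over all 6 libraries with the robust quasi-likelihood test of edgeR 4.0.16 in R 4.3.3 (alternatives: limma 3.58.1, DESeq2 1.42.0), with Benjamini-Hochberg adjustment over all genes tested and a threshold of 0.05. Values are mean ± SD with n = 3. The fits were tested on simulated data. Named genes were the 10 members, CBS, genes of the table whose loci overlap a member (NKIRAS1, which shares no exonic base with NR1D2, is given without values), the 3 genes closest in pattern to the member with the largest change, and, per wider list, up to 5 called genes with the largest change, separate groups and at least 1 CPM. Members and lists were chosen with earlier results of these data known. No pairing by replicate number was seen, which does not exclude one, and the main fit used none. Alternatives were another scaling (median-ratio factors or library total), no filter or a mean of at least 5 CPM, DESeq2, limma-trend on log2 FPKM or TPM (mean of at least 0.5), a replicate block and each library left out. A named gene of the enzyme list is not reported here.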

Additional observations from a re-analysis of the deposited data

How the results depend on the processing

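Among the 10 clock genes, 9 were called higher and 0 lower with TMM, median-ratio factors, no filter, a mean of at least 5 CPM, DESeq2, the replicate block and without each library (9 to 9 higher, 0 to 0 lower). With TPM 5 were higher, and 1 was lower with the library total, FPKM (with 1 or 0.1 added) and TPM. Of the wider clock genes 30 were higher and 18 lower, 27 to 31 and 17 to 21 without a library, and 14 and 31 with TPM. Over all genes 4998 were higher and 5062 lower, and without a library 4744 to 5028 and 4818 to 5234. The number higher was 2966 with the library total, 2823 with FPKM, 2818 with 0.1 added and 1969 with TPM, where 8451 were lower. The scaling sets this split, since the same counts and genes were used with TMM and the library total.

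BMAL1 turned from 0.04 to -0.32 with the library total, -0.27 with FPKM, -0.30 with 0.1 added, -0.50 with TPM, -0.0014 without WT replicate 3 and -0.064 without CBS KO replicate 3, and without each library in turn it ranged from -0.064 to 0.092. PER2, PER3 and CRY2 turned to -0.14, -0.13 and -0.12 with TPM. THRA reversed as well, at -0.21 with the library total, at -0.21 with FPKM (1 or 0.1 added) and at -0.43 with TPM. All 8 ratios kept their direction with TPM, with a pseudocount of 1 and without each library.

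Same-numbered WT and CBS KO samples deviated from their group means with correlations of 0.04, 0.02 and 0.02. These low values show no pairing by number, and they cannot exclude one. With the replicate block 4986 genes were higher and 5058 lower, and WT replicates 1 and 2 correlated best with their own number while WT replicate 3 did not. Counts of 183 to 1158 reads per library stood behind each clock gene.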
